A study of Homo sapiens with 12 samples.

Results

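Expression of 42 mitosis genes was examined in RNA-seq libraries of HUDEP-2 cells, a human line of immortalised erythroid progenitors made from cord blood. The genes were chosen by name, as well known components of mitotic entry, the spindle, the kinetochore, the spindle checkpoint, anaphase and cytokinesis, and the rule that selects them uses their symbols alone. All 42 were found among the 54628 genes of the count table, and all 42 passed the low-count filter that kept 15492 genes for testing.

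Cells enter mitosis when CDK1 is activated by B-type cyclins and CDC25 phosphatases, and polo-like and Aurora kinases then drive centrosome separation and spindle assembly. The spindle checkpoint holds anaphase until each kinetochore is attached to microtubules, after which CDC20 and the anaphase-promoting complex destroy securin and cyclin B and cytokinesis follows. Most of these genes are transcribed in late S, G2 and M phase under the control of shared promoter elements, so their RNA is abundant in dividing populations such as erythroid precursors.

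The 12 libraries formed 4 groups of 3. HUDEP-2 cells were expanded with stem cell factor, erythropoietin, dexamethasone and doxycycline. Both kinds of cells carried a CRISPR interference vector, a catalytically dead Cas9 fused to a KRAB repressor, delivered by lentivirus and selected as GFP-positive cells, together with a scrambled guide (sgControl) or a guide directed at an element upstream of EGR1, an immediate early transcription factor (sgEGR1). All cells were kept for 5 h without growth factors and then received PBS or 50 ng/mL of stem cell factor (SCF), which activates the Kit receptor, for 1 h. The groups are called sgControl PBS, sgControl SCF, sgEGR1 PBS and sgEGR1 SCF, and within each the values are given in the order of replicates 1, 2 and 3. The methods call the 3 samples of a condition biological replicates, isolated one by one, and neither they nor the labels say whether these were separate cultures, so p-values measure the spread between these libraries.

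Library totals lay between 23.5 and 29.1 megacounts (estimated counts with the SI prefix mega) after PBS and between 28.4 and 32.04 megacounts after SCF. The 13 erythroid marker genes were all detected and summed to 20572 to 23784 CPM (counts relative to the library total after TMM scaling), against 13.0 to 35.9 CPM for 5 megakaryocyte markers, at most 0.719 CPM for 6 myeloid markers and at most 0.251 CPM for 5 lymphoid markers. EGR1 itself stood at 208, 239 and 171 CPM in sgControl SCF and at 40.4, 57.4 and 204 CPM in sgEGR1 SCF, so the library labelled sgEGR1 SCF replicate 3 went against its label. After PBS it stood at 10.9, 5.99 and 7.45 CPM in sgControl and at 2.04, 1.12 and 0.977 CPM in sgEGR1. The average guide difference of EGR1 was -1.81 on the log2 scale with adjusted p = 0.669 (edgeR), so the reduction was not called over these libraries. The replicate 1 libraries of all groups stood apart from the rest, with 26.6% of tested genes called different between replicate 1 and the other replicates.

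Promoter sequences were available from RefSeq (GRCh38.p14) for 36 of the 42 genes, as windows from 250 bases before to 50 bases after the annotated transcription start. AURKA, BUB3, TTK, UBE2C, BIRC5 and TPX2 had no entry. The cell cycle homology region (CHR), an element bound by the MuvB complex, was searched as TTTGAA or TTCGAA, and the NF-Y box as CCAAT, both on either strand and with overlaps allowed. Printed here are the 120 bases before the start of the 5 genes with an entry that were called lower after SCF (HMMR, NEK2, CENPF, KIF20B and CENPE) and, for comparison, of 3 of the textbook G2/M genes (CCNB2, PLK1 and MKI67), with CHR and CCAAT matches of either strand in capitals (ATTGG is CCAAT and TTCAAA is TTTGAA on the other strand). CHR matches counted below but not printed lie outside these stretches. The stretches are HMMR at chr5:163460512-163460631 (plus strand), NEK2 at chr1:211675622-211675741 (minus strand), CENPF at chr1:214603075-214603194 (plus strand), KIF20B at chr10:89701470-89701589 (plus strand), CENPE at chr4:103198344-103198463 (minus strand), CCNB2 at chr15:59105026-59105145 (plus strand), PLK1 at chr16:23678769-23678888 (plus strand) and MKI67 at chr10:128126424-128126543 (minus strand).
HMMR: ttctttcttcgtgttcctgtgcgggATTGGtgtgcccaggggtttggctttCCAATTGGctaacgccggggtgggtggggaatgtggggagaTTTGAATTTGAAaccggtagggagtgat
NEK2: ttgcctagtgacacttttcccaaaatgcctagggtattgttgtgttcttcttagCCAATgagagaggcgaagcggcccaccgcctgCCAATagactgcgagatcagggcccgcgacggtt
CENPF: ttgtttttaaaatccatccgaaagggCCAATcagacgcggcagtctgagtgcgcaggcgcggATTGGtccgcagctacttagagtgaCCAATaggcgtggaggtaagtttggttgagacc
KIF20B: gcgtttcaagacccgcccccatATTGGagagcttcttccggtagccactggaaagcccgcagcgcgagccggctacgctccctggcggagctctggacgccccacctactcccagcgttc
CENPE: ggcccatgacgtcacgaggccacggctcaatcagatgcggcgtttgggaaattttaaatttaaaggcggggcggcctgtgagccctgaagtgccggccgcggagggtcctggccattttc
CCNB2: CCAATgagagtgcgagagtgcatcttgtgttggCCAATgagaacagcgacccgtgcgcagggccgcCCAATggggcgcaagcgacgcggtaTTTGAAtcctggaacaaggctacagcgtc
PLK1: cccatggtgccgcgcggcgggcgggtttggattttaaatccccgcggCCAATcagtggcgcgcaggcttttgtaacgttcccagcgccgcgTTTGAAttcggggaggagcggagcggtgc
MKI67: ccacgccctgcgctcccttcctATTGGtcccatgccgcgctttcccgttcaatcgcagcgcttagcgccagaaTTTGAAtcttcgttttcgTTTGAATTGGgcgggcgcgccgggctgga

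Matches that touch or overlap form a single capital run, as 2 CCAAT and 2 CHR matches of HMMR do, and as a CHR and a CCAAT match of MKI67 do. A CHR match was present in 26 of the 36 windows (72.2%) and in 16.6% of 27305 RefSeq promoters of the same length. A CCAAT match was present in 28 of 36 (77.8%, against 35.7% of all promoters), and both together in 22 of 36 (61.1%, against 6.58%). CCNB2, PLK1 and MKI67, printed for comparison, were among those with both. NEK2, CCNA2, CCNB1, KIF20A, PTTG1 and AURKB held a CCAAT match without a CHR match. CENPE, CDC25B, CDC25C and KIF2C held neither.

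Matches to elements of other factors were few. The forkhead letters TGTTTAC occurred in 1 window (CDK1, 2.78% against 3.41% of all promoters), and the E2F letters (TTTGGCGC, TTTCCCGC, TTTGCCGC or TTTCGCGC) in 2 (CDK1 and CENPA, 5.56% against 3.33%). The EGR element GCGTGGGCG occurred in 1 window, that of MKI67 (2.78% against 0.784%), and the AP-1 element (TGACTCA or its reverse TGAGTCA) in 0, against 4.92% of all promoters. Among the 5 called genes with an entry, 3 held a CHR match (CENPF, HMMR and KIF20B) and 4 a CCAAT match (these and NEK2). Among the other 31 genes, 23 held CHR and 24 CCAAT. These are letter matches within the windows, and binding was not measured.

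**Figure D1:**
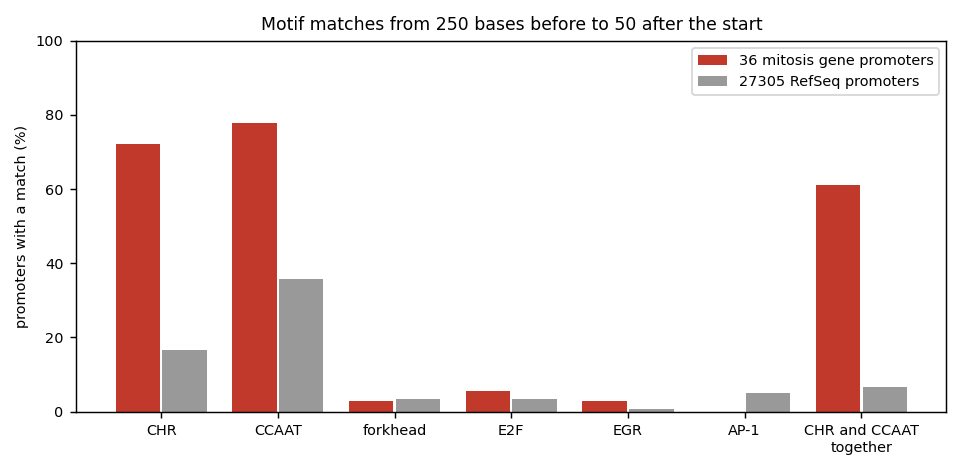
Percentage of promoter windows with a match to each motif on either strand (y axis, %) for the 36 mitosis genes with a RefSeq entry (red bars) and for 27305 RefSeq promoters (grey bars). CHR and CCAAT stand at 72.2% and 77.8% of the mitosis gene windows, against 16.6% and 35.7% of all promoters, while the other 4 motifs are below 6% in both.

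The mitosis genes were highly expressed in every group. Scaled by exon length, their median level over the 12 libraries was 39.7 CPM per kb, against 4.06 CPM per kb over the 13998 tested genes with a length, and all 42 lay above that median. The highest was TOP2A, the topoisomerase that untangles chromatids, at 138 ± 5.80 CPM per kb (SD, n = 12), followed by MKI67, a surfactant of mitotic chromosomes, at 125 ± 7.88, the anaphase activator CDC20 at 123 ± 6.89 and the spindle assembly factor TPX2 at 117 ± 4.09 CPM per kb. MKI67 and CDC20 did not differ beyond their spread. Cyclin B1 (CCNB1) followed at 99.5 ± 3.25 CPM per kb. The lowest were separase (ESPL1) at 13.2 ± 0.322, the checkpoint protein MAD2L1 at 10.1 ± 0.742 and the phosphatase CDC25C at 9.59 ± 0.610 CPM per kb, and the last 2 overlapped within 1 SD.

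**Figure D2:**
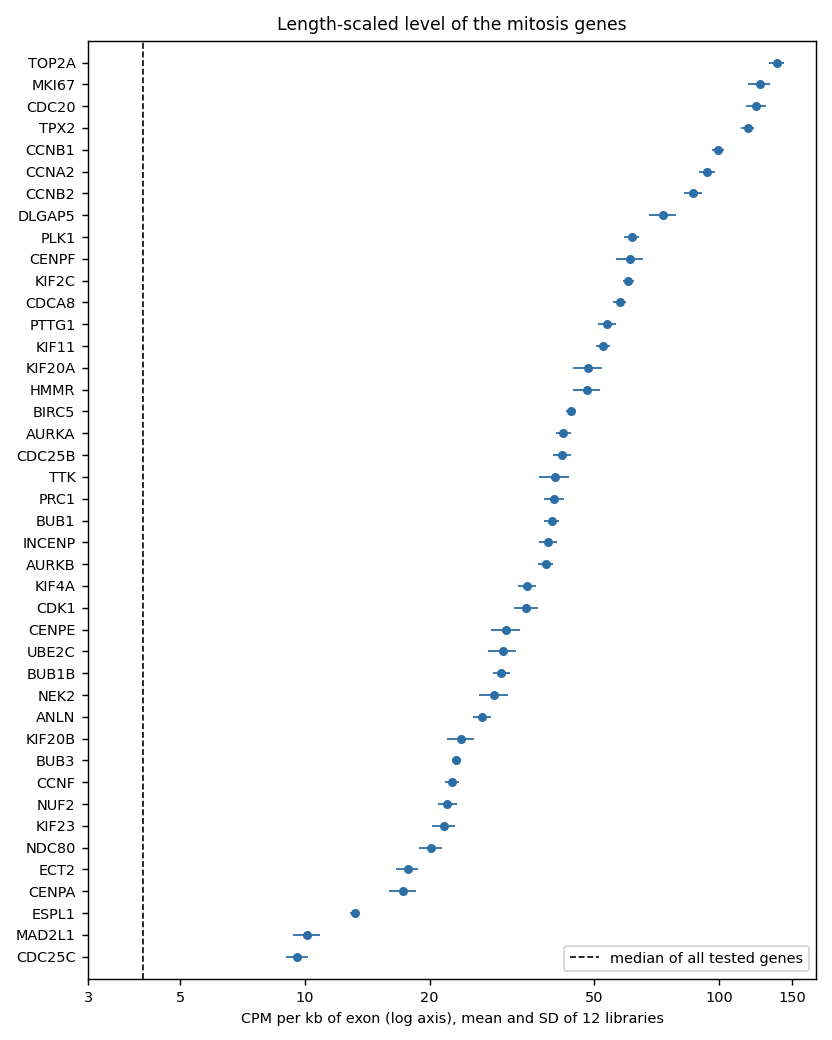
Level of each mitosis gene in CPM per kb of exon (log axis), as the mean (point) and SD (bar) of 12 libraries. All 42 genes lie to the right of the dashed line, the median of 4.06 CPM per kb over all tested genes, from CDC25C at 9.59 up to TOP2A at 137.9 CPM per kb.

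The depth behind these values was ample: the smallest count of a member in any library was 742 (CDC25C) and the largest 51375 (MKI67). The 42 genes together made up between 0.937% and 1.04% of each library. Their summed level was 9973 ± 286 CPM (SD, n = 3) in sgControl PBS, 9592 ± 148 in sgControl SCF, 10174 ± 202 in sgEGR1 PBS and 9583 ± 152 in sgEGR1 SCF. Within groups the coefficient of variation of a member had a median of 4.13% (range 0.933% to 7.53%), against 9.20% over all tested genes. In bulk RNA, a smaller share of cells in G2 and M phase and less RNA per such cell cannot be told apart.

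The first comparison asked how 1 h of SCF changed these genes, averaged over both guides to use all 12 libraries. After SCF, 6 of the 42 genes were lower and 0 higher at an adjusted p under 0.05 (edgeR quasi-likelihood F test). The 6 were the checkpoint kinase TTK, the centrosome kinase NEK2, the kinetochore proteins CENPE and CENPF, the cytokinesis kinesin KIF20B and the spindle protein HMMR, and their reductions were between 10.5% and 14.2%. Over all tested genes 9.03% were called, 5.58% higher and 3.45% lower. The median log2 fold change of the 42 was -0.052, against -0.0045 over all genes tested. Of the 42, 31 were negative (73.8%, against 51.5% of all tested genes). An unadjusted p under 0.05 was found for 14. Here and below, such unadjusted counts for SCF are given without a share of all genes, so no weight rests on them. In a fit with a term for replicate 1, given further on, 15 of the 42 were called.

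The share of mitochondrial counts moved with SCF too. The share of counts from mitochondrial genes was 9.88% to 10.7% in the PBS libraries and 8.23% to 9.70% in the SCF libraries, without overlap, and with those genes left out 6 of the 42 were called as before. Of the 13 erythroid markers 1 was called, the erythropoietin receptor EPOR, at -0.14 on the log2 scale with adjusted p = 0.036 (edgeR). Over all tested genes 9.03% were called, so this count says nothing particular of the markers. The summed erythroid marker level overlapped between treatments, at 20862 to 23677 CPM in sgControl PBS, 20572 to 23784 CPM in sgControl SCF, 22359 to 23430.0 CPM in sgEGR1 PBS and 21502 to 22882 CPM in sgEGR1 SCF.

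TTK (ENSG00000112742, chr6:80003887-80042527 of hg38), which recruits the checkpoint to unattached kinetochores, measured 198, 198 and 201 CPM in sgControl PBS, 163, 169 and 179 CPM in sgControl SCF, 204, 191 and 194 CPM in sgEGR1 PBS, and 171, 163 and 172 CPM in sgEGR1 SCF. All 6 SCF libraries lay below all 6 PBS libraries. Its average log2 fold change was -0.22 ± 0.032 (SE), adjusted p = 0.00112 (edgeR), with a 95% interval of -0.29 to -0.15, and it stood at -0.22 within sgControl and at -0.22 within sgEGR1.

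NEK2 (ENSG00000117650, chr1:211658657-211675630), which parts the centrosomes at mitotic entry, measured 93.3, 97.9 and 91.2 CPM in sgControl PBS, 78.5, 85.0 and 81.1 CPM in sgControl SCF, 101, 91.0 and 91.7 CPM in sgEGR1 PBS, and 89.0, 79.6 and 82.9 CPM in sgEGR1 SCF. The SCF and PBS libraries again did not overlap, with the SCF libraries lower. Its log2 fold change was -0.19 ± 0.040 (SE), adjusted p = 0.011 (edgeR). The table also lists 4 NEK2 pseudogenes, so reads could be split between them.

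KIF20B (ENSG00000138182, chr10:89701590-89774939), a kinesin that completes cytokinesis, measured 177, 161 and 172 CPM in sgControl PBS, 153, 152 and 161 CPM in sgControl SCF, 184, 178 and 168 CPM in sgEGR1 PBS, and 158, 147 and 149 CPM in sgEGR1 SCF. All SCF libraries were below all PBS libraries, though only narrowly, since sgControl PBS replicate 2 and sgControl SCF replicate 3 both rounded to 161 CPM. Its log2 fold change was -0.18 ± 0.035 (SE), adjusted p = 0.00799 (edgeR).

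CENPE (ENSG00000138778, chr4:103105349-103198445), the kinetochore motor that carries chromosomes to the spindle equator, measured 314, 285 and 346 CPM in sgControl PBS, 277, 287 and 297 CPM in sgControl SCF, 329, 331 and 331 CPM in sgEGR1 PBS, and 283, 280.1 and 284 CPM in sgEGR1 SCF. The groups overlapped through sgControl PBS replicate 2, which was as low as the SCF libraries, and the 3 sgEGR1 PBS libraries were almost equal and above all SCF libraries. Its log2 fold change was -0.18 ± 0.042 (SE), adjusted p = 0.0176 (edgeR).

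CENPF (ENSG00000117724, chr1:214603185-214664574), a large protein of the outer kinetochore, showed the same low library. It measured 808, 702 and 816 CPM in sgControl PBS, 706, 719 and 717 CPM in sgControl SCF, 836, 820.2 and 837 CPM in sgEGR1 PBS, and 744, 698 and 713 CPM in sgEGR1 SCF. Only sgControl PBS replicate 2 fell within the range of the SCF libraries. Its log2 fold change was -0.16 ± 0.038 (SE), adjusted p = 0.0179 (edgeR).

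HMMR (ENSG00000072571, chr5:163460203-163491941), a microtubule-binding protein of the spindle poles, measured 196, 202 and 213 CPM in sgControl PBS, 164, 177 and 198 CPM in sgControl SCF, 196, 193 and 195 CPM in sgEGR1 PBS, and 168, 179 and 182 CPM in sgEGR1 SCF. It was lower after SCF in all 6 same-numbered pairs, but sgControl SCF replicate 3 lay among the PBS libraries. Its log2 fold change was -0.16 ± 0.044 (SE), adjusted p = 0.0405 (edgeR). The call was lost without any single library except sgControl PBS replicate 1 or sgControl SCF replicate 3.

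**Figure D3:**
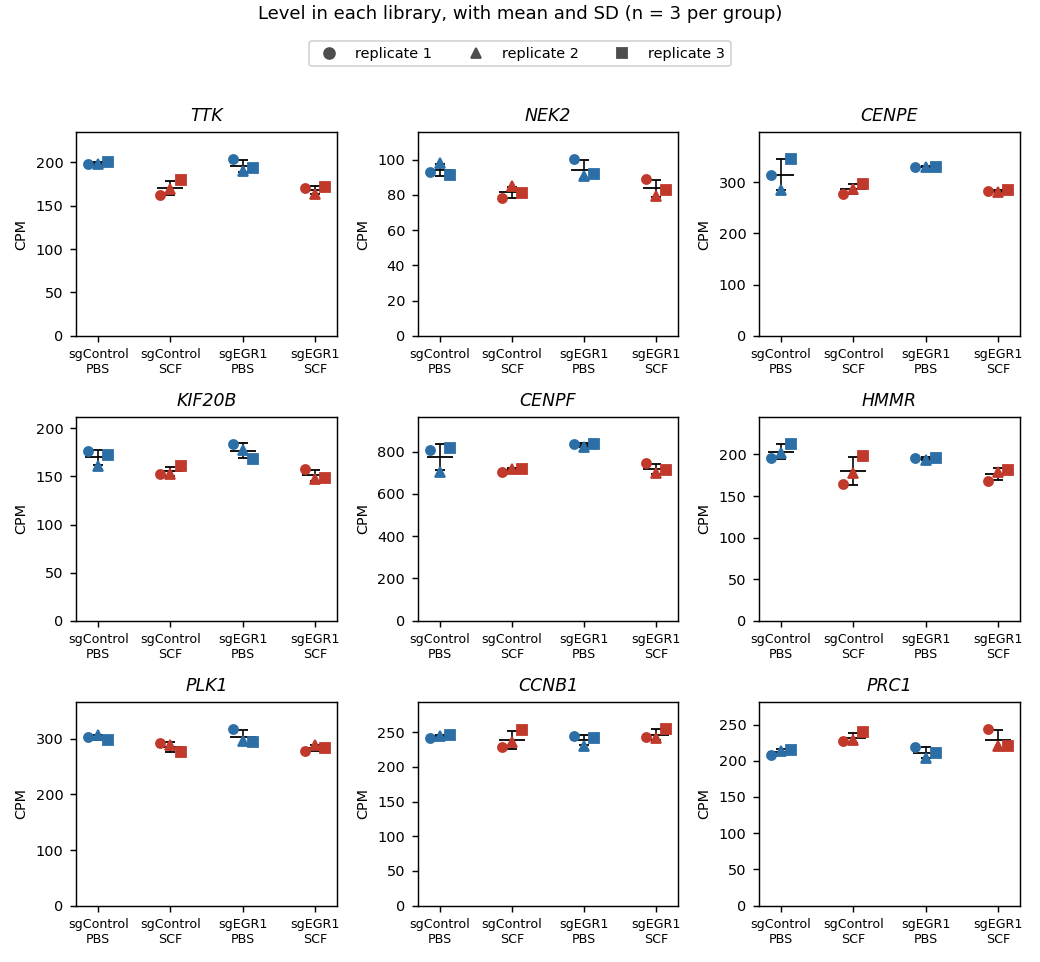
CPM of 9 mitosis genes in each library (y axis from 0), by group on the x axis, with PBS in blue and SCF in red, replicates 1 to 3 as circles, triangles and squares, and the group mean and SD (n = 3) as black bars. TTK, NEK2, KIF20B and PLK1 lie lower in every SCF library than in any PBS library, CENPE, CENPF and HMMR overlap through 1 library each, CCNB1 overlaps throughout, and PRC1 lies higher in every SCF library.

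By complete separation, 5 of the 42 genes had all SCF libraries below all PBS libraries (PLK1, NEK2, TTK, KIF20B and TPX2), against 2.47% of tested genes, and 1 had them all above (PRC1), against 4.43%. Lower values after SCF in all 6 same-numbered pairs were found for 16 genes, against 10.1% of tested genes, and higher values in all 6 pairs for 3 (AURKA, KIF23 and PRC1), against 12% of tested genes. PRC1, which bundles the central spindle, had a log2 fold change of 0.12 ± 0.034 (SE), adjusted p = 0.0518 (edgeR). It shares 57.6% of its exon bases with an overlapping gene model on the same strand, so its count is uncertain.

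Of the cyclins, CDK1 and the CDC25 phosphatases, which set the entry into mitosis, 0 of 7 were called and their log2 fold changes ran from -0.074 (CCNA2) to 0.067 (CDC25C). CCNB1 measured 242, 244 and 246 CPM in sgControl PBS, 228, 237 and 253 CPM in sgControl SCF, 244, 230.0 and 242 CPM in sgEGR1 PBS, and 243, 241 and 255 CPM in sgEGR1 SCF. CDK1 measured 122, 144 and 133 CPM in sgControl PBS, 134, 132 and 146 CPM in sgControl SCF, 140.3, 123 and 122 CPM in sgEGR1 PBS, and 144, 127 and 137 CPM in sgEGR1 SCF. In both genes the groups overlapped, the sign of CCNB1 turned under 5 of the alternatives, and the log2 fold changes were 0.010 ± 0.032 (SE) with a 95% interval of -0.060 to 0.081 for CCNB1 and 0.063 ± 0.053 (SE) with an interval of -0.053 to 0.18 for CDK1.

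Among the mitotic kinases, PLK1 and AURKA were not called in this fit. PLK1 measured 303, 306 and 298 CPM in sgControl PBS, 292, 289 and 276 CPM in sgControl SCF, 318, 296 and 294 CPM in sgEGR1 PBS, and 277, 288 and 283 CPM in sgEGR1 SCF. AURKA, which acts at the spindle poles, measured 124, 122 and 121 CPM in sgControl PBS, 125, 122 and 137 CPM in sgControl SCF, 120.3, 115 and 119.7 CPM in sgEGR1 PBS, and 125, 124 and 124 CPM in sgEGR1 SCF. The PLK1 libraries were separated by treatment with a log2 fold change of -0.090 ± 0.030 (SE), adjusted p = 0.0865 (edgeR), while the AURKA groups overlapped with 0.070 ± 0.032 (SE), adjusted p = 0.223 (edgeR). Part of the PLK1 exon sequence (12.8%) is shared with genes on the opposite strand, and the table lists 2 AURKA pseudogenes.

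In the spindle checkpoint, TTK alone of 5 genes was called. BUB1, its kinase partner at kinetochores, measured 253, 251 and 255 CPM in sgControl PBS, 228, 243 and 254 CPM in sgControl SCF, 266, 259 and 258 CPM in sgEGR1 PBS, and 238, 240.3 and 238 CPM in sgEGR1 SCF. The BUB1 values after SCF were lower in all 6 pairs but overlapped those after PBS, and the log2 fold change was -0.097 ± 0.029 (SE), adjusted p = 0.0629 (edgeR). BUB1B, BUB3 and MAD2L1 had log2 fold changes between -0.016 and 0.023.

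Of the anaphase machinery, 0 of 4 genes were called. CDC20 measured 230.3, 272 and 254 CPM in sgControl PBS, 228, 253 and 248 CPM in sgControl SCF, 241, 253 and 259 CPM in sgEGR1 PBS, and 224, 251 and 252 CPM in sgEGR1 SCF. The CDC20 groups overlapped and differed by -0.050 ± 0.048 (SE) on the log2 scale. Securin (PTTG1) and separase (ESPL1) stood at -0.076 and -0.044, and UBE2C, the ubiquitin-conjugating enzyme of the anaphase-promoting complex, at 0.11 with a 95% interval of -0.011 to 0.24.

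At the centromere and kinetochore, CENPE and CENPF were called and the other 3 of 5 genes were not: the centromeric histone CENPA (-0.051) and the microtubule-binding NDC80 (-0.055) and NUF2 (-0.029). The 4 genes of the chromosomal passenger complex, which corrects faulty attachments, kept within a narrow band of -0.026 (BIRC5) to -0.018 (CDCA8), with 0 called. Its kinase AURKB measured 79.8, 91.8 and 87.1 CPM in sgControl PBS, 80.9, 84.8 and 87.6 CPM in sgControl SCF, 87.9, 84.5 and 84.7 CPM in sgEGR1 PBS, and 80.9, 86.7 and 87.9 CPM in sgEGR1 SCF. The AURKB groups overlapped, its sign turned without sgControl PBS replicate 2 and without sgEGR1 SCF replicate 1, and the 95% interval of its log2 fold change was -0.11 to 0.068.

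All 7 kinesins and spindle proteins had negative log2 fold changes, against 51.5% of all tested genes. Of the 7, 5 had an unadjusted p under 0.05, and KIF20B and HMMR were called. KIF4A, a chromosome-associated kinesin, had -0.11 ± 0.032 (SE), adjusted p = 0.0524 (edgeR). The bipolar spindle motor KIF11 had -0.084, TPX2 -0.079, the spindle protein DLGAP5 -0.10 and the microtubule depolymerase KIF2C -0.047. Of the 5 genes of the central spindle and cytokinesis, 0 were called and the values went both ways, from the kinesin KIF20A (-0.16 ± 0.048 (SE), adjusted p = 0.0617, edgeR) and the RHOA activator ECT2 (-0.077) to the actin scaffold ANLN (0.025), the kinesin KIF23 (0.079) and PRC1.

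The 2 genes of mitotic chromosomes were not called. TOP2A measured 866, 871 and 934 CPM in sgControl PBS, 821, 867 and 896 CPM in sgControl SCF, 896, 935 and 915 CPM in sgEGR1 PBS, and 834, 850.2 and 862 CPM in sgEGR1 SCF. MKI67 measured 1657, 1415 and 1684 CPM in sgControl PBS, 1607, 1619.6 and 1484 CPM in sgControl SCF, 1745, 1671 and 1717 CPM in sgEGR1 PBS, and 1647, 1497 and 1552 CPM in sgEGR1 SCF. Both overlapped between treatments, and sgControl PBS replicate 2 gave the lowest MKI67 value of all libraries. Their log2 fold changes were -0.079 ± 0.032 (SE), adjusted p = 0.16 for TOP2A and -0.071 ± 0.046 (SE), adjusted p = 0.416 for MKI67 (edgeR).

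**Figure D4:**
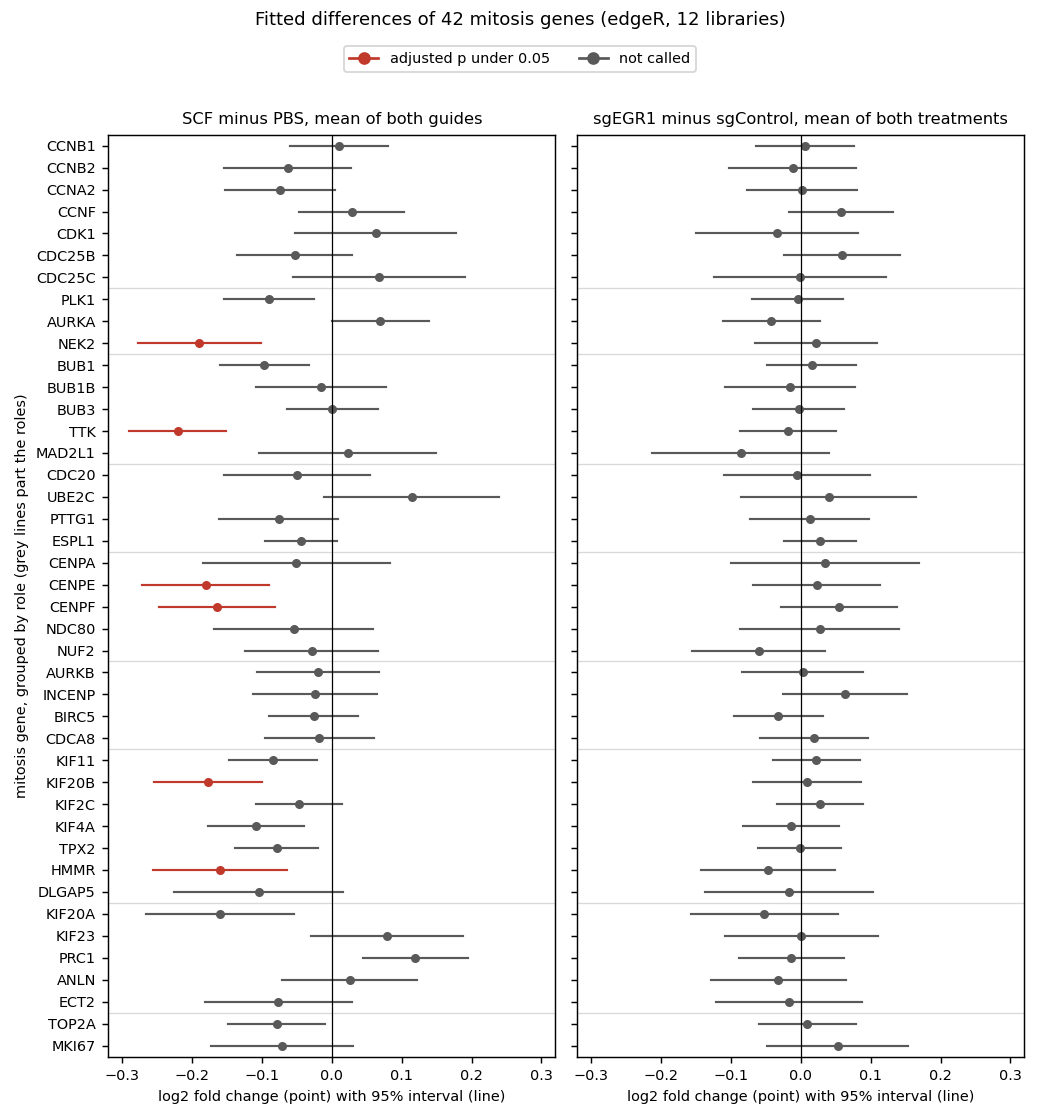
Fitted log2 fold changes (points) with 95% intervals (lines) of the 42 mitosis genes, ordered by role, for SCF minus PBS averaged over the guides (left) and for sgEGR1 minus sgControl averaged over the treatments (right). Red marks an adjusted p under 0.05: TTK, NEK2, CENPE, KIF20B, CENPF and HMMR on the left, and none on the right, where every interval includes 0.

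Within a single guide fewer genes passed. In sgControl cells SCF lowered 1 of the 42, TTK (-0.22 ± 0.045 (SE), adjusted p = 0.0218, edgeR), where 2.89% of all tested genes were called, 2.12% higher and 0.775% lower. Of the 42, 11 had an unadjusted p under 0.05 and the median log2 fold change was -0.048, against -0.0060 over all genes. In sgEGR1 cells SCF lowered 2, TTK (-0.22 ± 0.045 (SE), adjusted p = 0.0233) and KIF20B (-0.22 ± 0.050 (SE), adjusted p = 0.0355, edgeR), where 2.59% of all genes were called, 1.81% higher and 0.788% lower. There 13 of the 42 had an unadjusted p under 0.05 and the median was -0.050, against -0.00048 over all genes. Same-numbered sgEGR1 libraries deviated together, and with the number as a block 5 genes were called in sgEGR1 cells (CENPE, CENPF, KIF20B, TTK and KIF4A, all lower), against 7.97% of all genes called and 3.26% called lower. The TTK call in sgControl was lost when any 1 library of that comparison except sgControl SCF replicate 3 was left out, and both sgEGR1 calls were lost when any 1 of its 6 libraries was left out.

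The SCF response did not differ detectably between the guides. In the interaction, which is the sgEGR1 response minus the sgControl one, 0 of the 42 genes were called and 0 had an unadjusted p under 0.05, and 0% of all tested genes were called (edgeR), with 306 at an unadjusted p under 0.05 and 2 called by DESeq2. The lowest log2 values were those of MKI67 (-0.11, 95% interval -0.32 to 0.088), KIF20B (-0.095, -0.25 to 0.059) and CENPE (-0.092, -0.27 to 0.090). The highest were those of CENPA (0.13, -0.14 to 0.39), UBE2C (0.11, -0.14 to 0.37) and PTTG1 (0.10, -0.065 to 0.27).

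The guide comparison asked whether repression at the EGR1 element changed the mitosis genes. The sgEGR1 and sgControl libraries overlapped in all 42 genes, where 0.2% of tested genes did not overlap. Averaged over the treatments, 0 of the 42 were called and 0 had an unadjusted p under 0.05, and 0% of all tested genes were called (edgeR), with 805 at an unadjusted p under 0.05. DESeq2 called 0 of the 42 as well and 27 of 27654 genes. Same-numbered libraries of the guides deviated together, which these fits leave out. With the number as a block, 0 of the 42 and 49 of all tested genes (0.316%) were called. With a term for replicate 1, 0 of the 42 and 58 of all (0.374%) were called. In the edgeR fit without these terms, the 42 had a median log2 fold change of 0.0010, against -0.00066 over all genes. Their 95% intervals there lay between -0.21 and 0.17, that is between 13.7% lower (MAD2L1) and 12.4% higher (CENPA) in sgEGR1 cells.

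The lowest average guide differences were those of MAD2L1 (-0.086 ± 0.058 (SE)), NUF2 (-0.060) and KIF20A (-0.052), and the highest those of INCENP, the scaffold of the passenger complex (0.063 ± 0.041 (SE)), CDC25B (0.059) and the F-box protein CCNF (0.057). After PBS, 0 of the 42 and 0% of all tested genes were called (edgeR, with 715 at an unadjusted p under 0.05 and 19 called by DESeq2), and the values ran from MAD2L1 (-0.10), NUF2 (-0.064) and HMMR (-0.063) to CCNF (0.069), CENPF (0.10) and MKI67 (0.11). After SCF, 0 of the 42 and 0% of all were called (edgeR, with 361 at an unadjusted p under 0.05 and 4 called by DESeq2), from MAD2L1 (-0.071), NUF2 (-0.056) and KIF4A (-0.052) to INCENP (0.065), UBE2C (0.097) and CENPA (0.098). The unadjusted p was above 0.05 for every one of the 42 in both. With the number as a block, 0 of the 42 and 2 of all tested genes (0.0129%) were called in each. Leaving out sgControl SCF replicate 3 turned the signs of MAD2L1 and NUF2 in the comparison after SCF. When the library labelled sgEGR1 SCF replicate 3, which went against its label, was left out, 0 of the 42 were called in any guide comparison, while 22 of all genes (0.139%) were called in the average guide difference, and 233 (1.47%) when the replicate 1 term was added.

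In a fit with a term for replicate 1, 11 of the 42 differed between replicate 1 and the others, 7 higher and 4 lower in replicate 1. This share is close to that of all tested genes (26.6%, with 13.1% higher and 13.4% lower), so it says nothing particular of the mitosis genes. Leaving out 1 replicate 1 library gave 6 to 9 calls, with 6 without sgEGR1 SCF replicate 1, 7 without sgControl SCF replicate 1, and 2 higher and 7 lower without sgEGR1 PBS replicate 1. Those lower were DLGAP5 (223 to 256 CPM in the replicate 1 libraries and 258 to 289.5 CPM in the others), CDC20 (224 to 241 CPM in the replicate 1 libraries and 248 to 272 CPM in the others), CCNB2 and KIF20A. Those higher were NDC80 (72.3 to 79.9 CPM in the replicate 1 libraries and 64.7 to 71.5 CPM in the others), KIF23 (146 to 159.7 CPM in the replicate 1 libraries and 129 to 145 CPM in the others), CENPA, ECT2, ANLN, CDC25B and CCNA2. In DLGAP5, CDC20, NDC80 and KIF23 the replicate 1 libraries did not overlap the rest. How many of all tested genes did so was not counted, so no weight rests on this. What replicate 1 shares is not stated in the labels, and this split was known from these data beforehand.

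**Figure D5:**
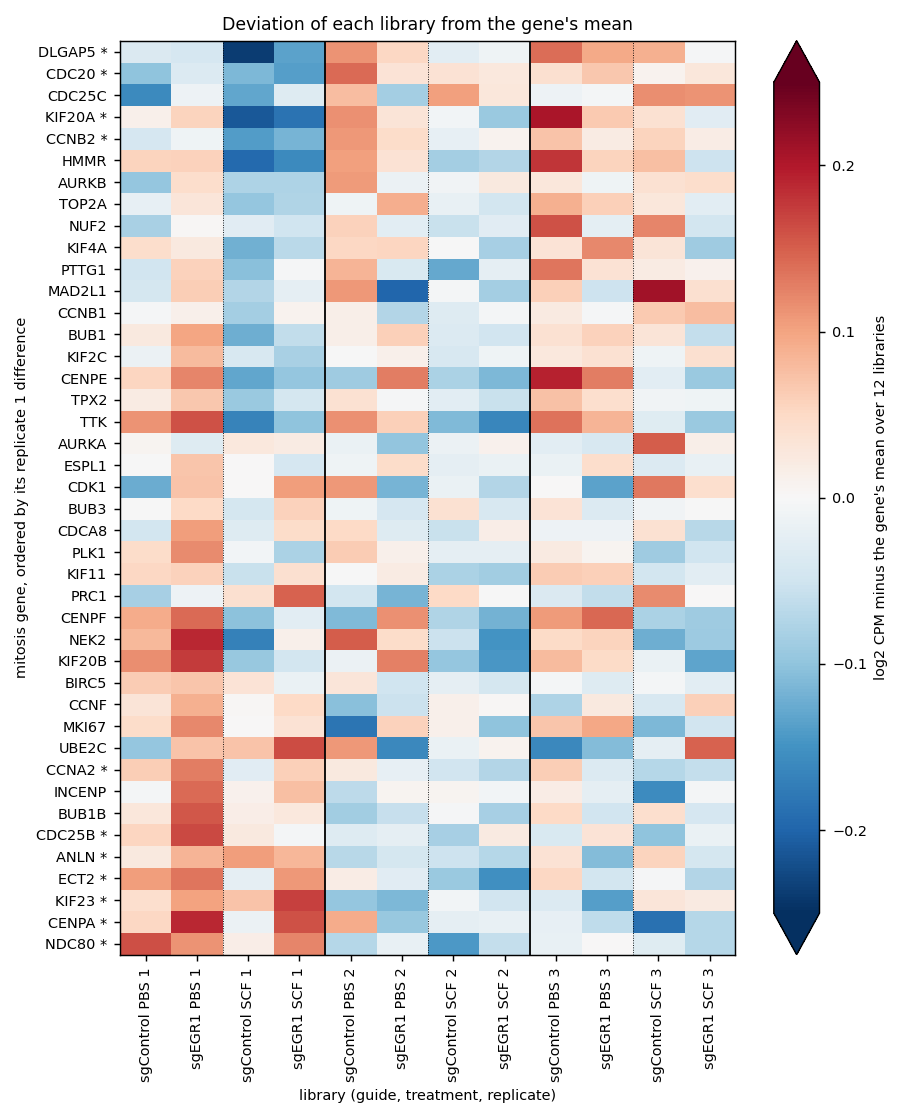
Deviation of log2 CPM from each gene's mean over 12 libraries (colour, capped at 0.25 either way) for the 42 mitosis genes, ordered by their replicate 1 difference, with libraries grouped by replicate and, within each, PBS left and SCF right of the dotted line. Stars mark the 11 genes called different in replicate 1, with DLGAP5 and CDC20 lower there at the top and NDC80 and CENPA higher there at the bottom.

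With that term in the fit, the average SCF response called 15 of the 42, 14 lower and 1 higher (PRC1), against 18.5% of all tested genes called, 10.2% higher and 8.29% lower. The 14 were the 6 above together with KIF20A (-0.16), KIF4A (-0.11), DLGAP5 (-0.11), BUB1 (-0.097), PLK1 (-0.090), KIF11 (-0.084), TPX2 (-0.079) and TOP2A (-0.079). In sgControl it called 4 (HMMR, TTK, NEK2 and KIF20A, all lower, against 8.32% of all genes called and 3.04% called lower) and in sgEGR1 6 (CENPE, CENPF, KIF20B, TTK, BUB1 and KIF4A, all lower, against 8.56% called and 3.52% called lower). Within replicate 1, where each group has 1 library and no test was run, 34 of the 42 had a negative mean difference over the 2 pairs. Within replicates 2 and 3, 30 of the 42 were negative over the 4 pairs. Signs over all genes were not counted within replicates. A fit to the libraries of replicates 2 and 3 called 6 with 5 lower, against 11.3% of all genes (1042 higher and 706 lower of 15506). TTK stood at -0.27 in replicate 1 and -0.20 in replicates 2 and 3, and CENPE and HMMR missed the threshold in the latter (adjusted p = 0.0698 and 0.0728, edgeR).

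The 6 genes called lower had GC-poor exons, with 34.3% to 41.3% GC (median 38.9%). The other 36 ran from 34.9% to 59.2% (median 46.7%), so the ranges overlapped and low GC was not particular to the called genes. The median was 47.9% over the tested genes with a value. Between GC content and the average SCF log2 fold change, the correlation (r) was 0.27 over the 42 genes. Over the 13998 tested genes with a value it was 0.0059. With an offset for GC content, chosen after seeing the data, 11 of the 42 were called, all lower. Of all tested genes 9.90% were called in that fit (872 higher and 661 lower of 15492). Leaving out sgEGR1 SCF replicate 2 reduced the calls from 6 to 3 (TTK, NEK2 and KIF20B), and across the other single libraries the number lay between 5 and 9.

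Related mitosis genes outside the 42 were read from 7 lists of 84 genes, of which 83 were tested. In the average SCF response 6 were called higher and 5 lower, where 5.58% of all tested genes were called higher and 3.45% lower. Their median log2 fold change was -0.0036, and 54.2% of the 83 were negative, against 51.5% of all tested genes. These values are close to those of all tested genes, so they say nothing particular of the 83 genes. The 9 genes of mitotic entry control were all positive, where 7516 of 15492 tested genes were. Of them MASTL, the Greatwall kinase, and ARPP19, its substrate that inhibits a phosphatase opposing CDK1, were called higher (0.23 and 0.32). FBXO5, an inhibitor of the anaphase-promoting complex, and ANAPC13, one of its subunits, rose (0.27 and 0.32), as did the kinetochore protein MIS12 (0.32), for 2 of 17 and 1 of 13 tested in their lists. Of 8 condensin and 8 cohesion genes, SMC4 (-0.20) and RAD21 (-0.12) fell, and of 15 other spindle and cytokinesis genes the kinase CIT (-0.19) and the kinesin KIF15 (-0.21) fell. MASTL, ANAPC13, SMC4 and MIS12 share 16.5%, 19.3%, 22.0% and 9.53% of their exon bases with genes on the opposite strand. The table lists 2 ARPP19 pseudogenes and also pseudogenes of SMC4 and RAD21, so these counts are uncertain.

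Of 13 genes for transcription factors known to act on mitosis promoters, 1 rose and 1 fell (against 5.58% and 3.45% of all tested genes). These counts are close to those shares, so they say nothing particular of the list. NFYA, a subunit of the factor that binds CCAAT, measured 67.6, 64.1 and 68.1 CPM in sgControl PBS, 92.8, 80.8 and 85.7 CPM in sgControl SCF, 70.8, 65.5 and 67.1 CPM in sgEGR1 PBS, and 86.0, 75.5 and 78.8 CPM in sgEGR1 SCF. LIN54, the subunit of the MuvB complex that binds CHR, measured 78.9, 67.2 and 71.4 CPM in sgControl PBS, 65.7, 57.8 and 57.1 CPM in sgControl SCF, 77.9, 75.0 and 69.0 CPM in sgEGR1 PBS, and 69.1, 57.0 and 57.8 CPM in sgEGR1 SCF. All 6 SCF libraries were above all 6 PBS libraries for NFYA, while LIN54 overlapped through sgEGR1 SCF replicate 1 and was lower after SCF in every same-numbered pair. The log2 fold changes were 0.31 ± 0.044 (SE), adjusted p = 0.00113 for NFYA and -0.27 ± 0.062 (SE), adjusted p = 0.0174 for LIN54 (edgeR). The other listed subunits of NF-Y (NFYB and NFYC) and of MuvB (LIN9, LIN37, LIN52 and RBBP4) were not called. FOXM1 (0.049) and MYBL2 (0.038), which drive G2/M transcription, were not called either. NFYA has a pseudogene in the table and shares 8.94% of its exon bases with genes on the opposite strand.

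DNA replication genes, which act earlier in the cycle, were counted beside them. Of 35 genes, 8 were called higher and 1 lower after SCF (5.58% and 3.45% of all tested genes), with a median log2 fold change of 0.074. The licensing factor CDC6 measured 44.5, 46.0 and 44.3 CPM in sgControl PBS, 60.5, 57.2 and 60.1 CPM in sgControl SCF, 47.1, 45.3 and 46.2 CPM in sgEGR1 PBS, and 63.7, 58.8 and 57.6 CPM in sgEGR1 SCF, with no overlap between treatments and a log2 fold change of 0.39 ± 0.035 (SE), adjusted p = 3.28e-05 (edgeR). Also higher were RRM2 (0.26), FEN1 (0.23), CHAF1B (0.20), GINS2 (0.18), CDC45 (0.15), RFC2 (0.15) and PCNA (0.14), and the licensing factor CDT1 was lower (-0.24). Summed, the 35 genes stood at 6492 ± 130 CPM (SD, n = 3) in sgControl PBS, 6741 ± 64.1 in sgControl SCF, 6544 ± 43.8 in sgEGR1 PBS and 6744 ± 12.7 in sgEGR1 SCF. The difference between the replication and mitosis lists was not tested.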

How the data were processed

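Per the study's methods and the labels, the authors aligned reads to hg38 with HISAT and made estimated counts per gene with StringTie, and the deposited values were all whole numbers. The annotation release, the use of strand and the treatment of reads that map to several places are not given in the sources used here, and the kit named in the labels is not that of the methods. Groups were taken from the labels. Genes were filtered with filterByExpr, scaled by TMM and fitted with edgeR 4.0.16 (quasi-likelihood F test, 1 coefficient per group, all 12 libraries, R 4.3.3), and calls were made at a Benjamini-Hochberg adjusted p under 0.05 over 15492 genes. SE and 95% intervals were derived from the F statistics. The fit was also run on simulated counts of independent libraries without a replicate 1 difference. That run cannot show how such a difference bears on the calls. DESeq2 1.42.0, other scalings and filters, single libraries left out, a replicate block and a replicate 1 term were alternatives. Residuals from group means of log2(CPM + 0.5) correlated between same-numbered libraries at 0.126 to 0.377 in the sgEGR1 comparison, and at 0.161 to 0.419 between guides.

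The mitosis genes, the related lists and the tests were chosen with earlier results of these data known. All 42 genes were accounted for by role. The rule for statistics took the called genes (up to 6 in each direction), or else the 3 highest and 3 lowest, and other members and called list genes were given with their values beyond it, chosen after these were seen. Values per library were given for genes called in the average responses and for CCNB1, CDK1, PLK1, AURKA, AURKB, CDC20, BUB1, TOP2A and MKI67, while NFYA, LIN54 and CDC6 were added after their values were seen. Gene positions and exon overlaps came from GENCODE on GRCh38, 1-based, and promoters from RefSeq GRCh38.p14.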

Additional observations from a re-analysis of the deposited data

How the results depend on the processing

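The number of mitosis genes called after SCF depended on the fit, as did the share of all tested genes called, given in brackets. Averaged over the guides it was 6 (9.03%), against 13 by DESeq2 (6.49%), 10 with upper quartile factors (9.10%), 15 with the replicate block (18.1%), 15 with the replicate 1 term (18.5%) and 0 when a change beyond 1.5-fold was required (0.226%). It lay between 3 and 9 when 1 library was left out, with 3 without sgEGR1 SCF replicate 2. In sgControl it was 1 (2.89%), against 2 by DESeq2 (2.84%), 4 with the block (7.64%), 4 with the replicate 1 term (8.32%), 0 in a fit to the groups of the comparison only (1.30%) and 0 beyond 1.5-fold (0.116%), and 0 to 1 with 1 library left out. In sgEGR1 it was 2 (2.59%), against 6 by DESeq2 (2.86%), 1 without the low-count filter (1.09%), 5 with the block (7.97%), 6 with the replicate 1 term (8.56%) and 0 beyond 1.5-fold (0.129%), and 0 to 4 with 1 library left out, the 4 being without sgControl PBS replicate 2. Pairing by number did not meet the rule in sgControl, where every pair's residual correlation over all genes had to pass 0.1 and the values were 0.417, 0.0694 and 0.183. Over the 42 genes alone they were 0.696, 0.133 and 0.392.

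Alternatives chosen after seeing the data gave, for the average, sgControl and sgEGR1 in turn, 11, 1 and 1 with a GC content offset (9.90%, 3.09% and 2.90%), 17, 7 and 8 with that offset and the block (18.8%, 8.33% and 9.15%), and 10, 2 and 2 with the replicate 1 term when sgEGR1 SCF replicate 3 was left out (15.4%, 7.49% and 4.92%). The causes were not tested. In the guide comparisons and the interaction 0 were called in every alternative, the block included. Of the recomputed values of named genes, 991 kept direction and side of the threshold, 48 lost a call, 17 gained one and 9 changed sign, none of these 9 called in the main analysis. The log2 fold change of CCNB1, average SCF response over both guides, went from 0.010 to -6.78e-05 with upper quartile factors, -0.0094 without sgControl SCF replicate 3, -0.00019 without sgEGR1 PBS replicate 2, -0.0050 with the GC content offset and -0.0051 with that offset and the block, and lay between -0.0094 and 0.030 with 1 library left out. That of AURKB, average SCF response over both guides, went from -0.020 to 0.0055 without sgControl PBS replicate 2 and to 0.0011 without sgEGR1 SCF replicate 1, and lay between -0.043 and 0.0055 with 1 library left out. Between guides after SCF, MAD2L1 went to 0.017 and NUF2 to 0.0014 without sgControl SCF replicate 3, with ranges from -0.13 and -0.096 up to these values when 1 library was left out. In the average response over 22 settings, TTK, NEK2 and KIF20B were called in 21 each, CENPF in 20, CENPE in 19 and HMMR in 9.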
